A study of Rattus norvegicus with 6 samples.

Results

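Brain capillaries of olmesartan-treated stroke-prone spontaneously hypertensive rats (SHRSP) were compared with those of control SHRSP, 2 arrays against 2. The rats were 6 weeks old. Olmesartan, an angiotensin receptor blocker (ARB), was given by mouth at 4 mg/kg per day, and the labels call the other group control. The labels also name 1% NaCl, without saying which groups received it, so controls may have been given salt rather than nothing. All groups share the SHRSP strain, and no group of rats with normal blood pressure was part of the comparison. The other 2 arrays, from rats given the angiotensin-converting enzyme inhibitor lisinopril (ACEI) at 6 mg/kg per day, entered the model only to help estimate the spread. The comparison covered 4 of the 6 arrays and all 8740 rat probe sets of the 8799 on the RG_U34A array, leaving out the 59 array control probe sets. Of the 8740, 5244 probe sets of 3186 named genes passed a filter on low values and were tested. Neither the number of rats behind an array nor any pooling is given, so p-values measure only the spread between arrays, which may be technical.

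Angiotensin II acts on vessels mainly through the type 1 receptor, which raises vascular tone and drives aldosterone release, and in experimental hypertension its signalling has been tied to NADPH oxidases, to the transcription factor NF-kB and to the adhesion of leukocytes. Olmesartan occupies this receptor, and renin and angiotensin II then commonly go up because the feedback on the kidney is lost. Brain capillaries consist of endothelial cells joined by tight junctions, pericytes in a shared basement membrane and the end feet of astrocytes. Isolated capillaries commonly carry blood cells and pieces of the surrounding brain, and in bulk RNA fewer cells of a type cannot be told apart from less RNA per cell.

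Before any gene was read, the arrays themselves were compared, because those of the ARB group stood apart. Each array had been scaled to a trimmed mean between 997.7 and 1002.2, yet the median intensity of all probe sets was 318.8 on control 1, 258.6 on control 2, 486.7 on ARB 1 and 495.7 on ARB 2. The highest intensity of the array was 33690.7 on control 1, 95155.2 on control 2, 202386.1 on ARB 1 and 217986.1 on ARB 2. Signal was also raised on array control probe sets. The 9 probe sets for bacterial and phage transcripts that are spiked into the hybridisation mix (hybridisation controls) had medians of 1289.8 and 3273.5 on control 1 and control 2 and of 7524.8 and 5387.3 on the ARB arrays. All 9 were higher on both ARB arrays than on both controls, with a median log2 difference of 1.29 and a range of 0.51 to 1.72. For 15 probe sets against bacterial transcripts that are normally not added (foreign transcripts), medians were 24.2 and 25.2 on the controls and 91.4 and 80.9 on the ARB arrays, and 13 of the 15 did not overlap. For 15 antisense controls the medians were 186.7 and 212.9 against 522.3 and 326.4, with 8 of the 15 higher on both ARB arrays. Some of the 15 are antisense to rat genes, and these split by gene. Those of Gapdh lay at 2.28 to 3.26 and those of beta-actin at -0.46 to -0.11. The differences of the hybridisation controls serve below as the yardstick for a rise in signal that has no rat transcript behind it.

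**Figure D1:**
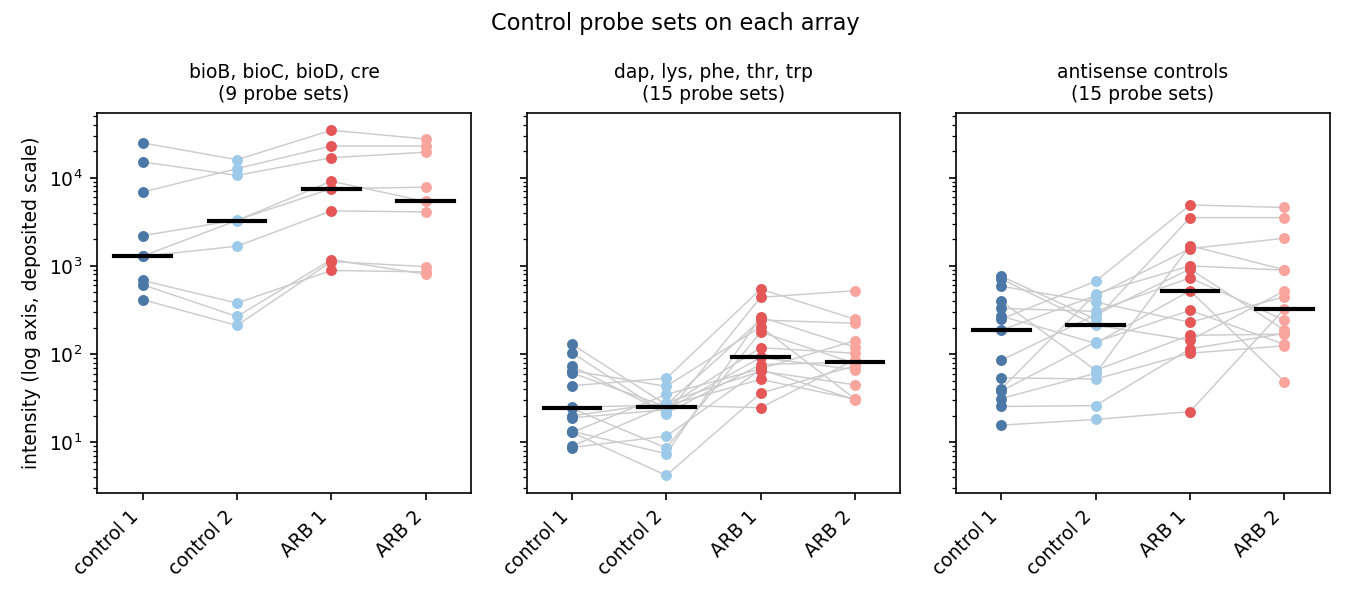
Intensity of the array's control probe sets (log axis) on the 2 control and 2 ARB arrays, with a panel each for hybridisation controls (bioB, bioC, bioD, cre), foreign transcripts (dap, lys, phe, thr, trp) and antisense controls. Each point is 1 probe set, lines join it across arrays, and the bar marks the median. The hybridisation controls reach medians of 7524.8 and 5387.3 on the ARB arrays and 1289.8 and 3273.5 on the controls.

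The control pair was also the less alike of the pairs. Over the probe sets tested, 34.5% differed by over 2-fold between control 1 and control 2, against 15.2% between the ARB arrays. The signal near the 3' end divided by that near the 5' end is raised in degraded or shortened RNA. For Gapdh it was 0.97 on control 1, 7.31 on control 2, 1.48 on ARB 1 and 1.42 on ARB 2. For beta-actin it was 1.1, 3.15, 2.05 and 1.65 in the same order, so control 1 was the lowest in both. Per the run files, control 1 was run on an earlier day with another chip lot, while control 2 and both ARB arrays shared a day and a lot. Results below are therefore given against each control where these differ, and only control 2 gives a value within a run day.

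On the scale of log2(intensity + 90), 0 of 5244 probe sets (0%) passed an adjusted p of 0.05 by limma with Benjamini-Hochberg adjustment, the lowest adjusted p being 0.154. At an unadjusted p under 0.05 the same test gave 905 probe sets (17.3%), of which 659 (12.6%) were higher with olmesartan and 246 (4.69%) were lower. Both ARB arrays lay above both controls for 1750 probe sets (33.4%) and below both for 879 (16.8%), so that 50.1% did not overlap at all. A single probe set taken by itself can reach a two-sided exact permutation p of 0.333 at the lowest with 2 arrays against 2. The split between higher and lower depended on the scaling. It was 400 against 481 after quantile normalization and 347 against 365 after cyclic loess normalization, which evens out differences that depend on brightness. It was 117 against 889 with equal array medians and 11 against 463 when the arrays were scaled to their hybridisation controls. The count past the adjusted threshold rested on the controls, since it was 15 without control 1 and 46 without control 2, where the lone control is assumed to vary like the other arrays.

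The shift between the groups followed brightness. The median difference (ARB minus control, log2) over all probe sets tested was 0.18, and over 5 equal classes of them from the dimmest to the brightest it was 0.59, 0.48, 0.31, 0.05 and -0.33. Over all 8740 probe sets without the filter the median was 0.43 and 69.6% were higher. Read against the yardstick, 599 probe sets (11.4%) were higher by more than the median of the hybridisation controls and 223 (4.25%) by more than the largest of them, while 83 were lower by more than that largest size. The direction of the overall median turned with scaling, from 0.18 to -0.07 (quantile), -0.001 (loess), -0.50 (equal medians) and -0.87 (hybridisation controls). For this reason each list below is also read relative to the median of all probe sets under the same scaling. Of the 26 gene lists used, 15 had a median below that of all probe sets under every one of these scalings, 5 had one above it, and the others turned.

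**Figure D2:**
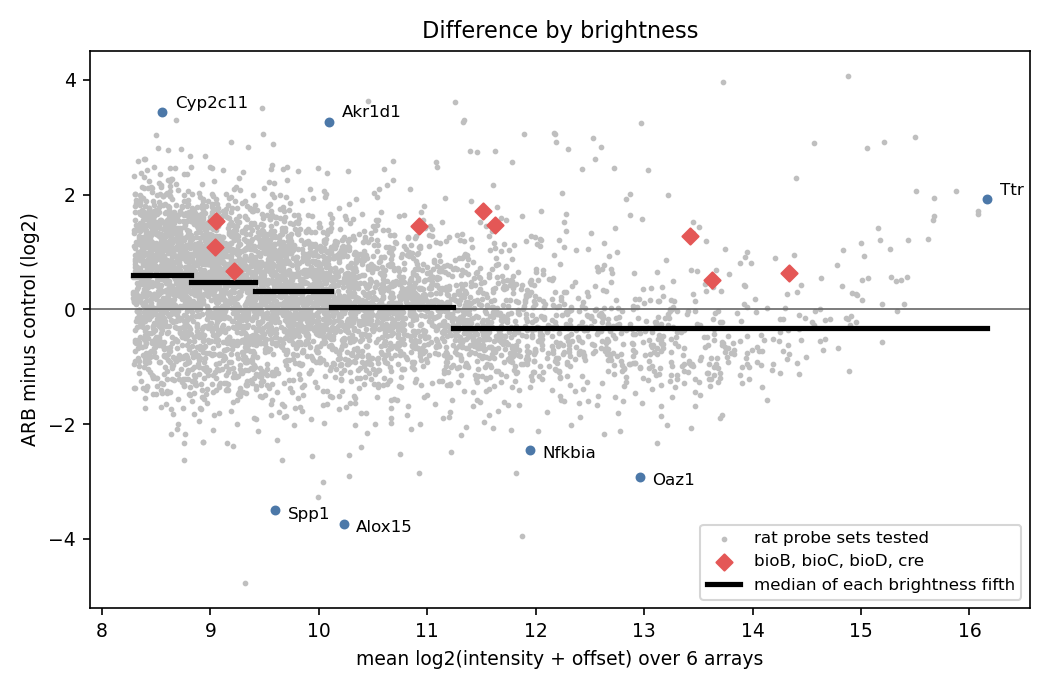
Log2 difference, ARB minus control, of each of the 5244 probe sets tested against its mean log2 intensity over the arrays, with the hybridisation controls (bioB, bioC, bioD, cre) as diamonds and bars at the median of each brightness class. The medians of 5 brightness classes run from 0.59 for the dimmest to -0.33 for the brightest, and the hybridisation controls lie at 0.51 to 1.72.

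Genes of other tissues were among the higher ones. Olfactory receptors, the odorant receptors of the nasal lining, were higher for 39 of the 40 measured, with a median difference of 1.34, and both ARB arrays lay above both controls for 35 of the 40. Liver enzymes and plasma proteins were higher for 29 of 32 measured genes with a median of 1.02, and 21 of the 32 lay above both controls. The same counts over all 4736 measured genes were 67.8% higher, a median of 0.40 and 42.1% above both controls. Both lists were chosen after the values had been seen. The median of the 40 olfactory receptors read 188.9 and 292.9 on the controls and 707.8 and 607.2 on the ARB arrays. With the arrays scaled to the hybridisation controls, the medians of these 2 lists over the members tested were 0.21 and 0.11. Members dim on the controls could pass the filter through their ARB values alone, so these 2 medians allow no comparison with other lists. How much of the higher values on the ARB arrays comes from the raised signal of control probe sets was not tested.

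The 12 genes named for the largest higher values, among 96 that qualified, had both ARB arrays above both controls by construction and an unadjusted p under 0.01, so they are given as a description. Cyp2c11, a steroid hydroxylase of male rat liver, read 69.7 and 115.5 on the controls and 2361 and 1470 on the ARB arrays (3.43 ± 0.53, log2 difference ± SE, n = 2 per group; limma adjusted p = 0.158). Akr1d1, the liver steroid reductase of bile acid synthesis, read 358.5 and 660.2 against 5647 and 5391 (3.27 ± 0.57, adjusted p = 0.175). These genes of the liver lead the list. Next by size was Prrc2c, given below, at 2.91. Further down, Or1ad6, an olfactory receptor, read 26.7 and 293.4 against 1111 and 1431 (2.68 ± 0.69). Sds, the serine dehydratase of liver, read 92.7 and 110.3 against 580.7 and 1344 (2.36 ± 0.56). Gc, the vitamin D binding protein of plasma and a member of the liver list, was higher by 2.11 ± 0.47.

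Grin3a, an NMDA receptor subunit, read 217.8 and 71.6 on the controls and 773.9 and 1713 on the ARB arrays (2.48 ± 0.56). Slc6a5, the glycine transporter of nerve endings, was higher by 2.46 ± 0.58, and the voltage-gated potassium channel Kcnh1 by 2.46 ± 0.67. Kcnh1 read 13.4 on control 1 and 330.7 on control 2, and without control 2 its difference was 3.47 and passed the adjusted threshold. Cabp1, a calcium-binding protein of neurons, was higher by 2.48 ± 0.45 at 1 probe set and by 2.03 ± 0.62 at the other.

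The brightest of the 12 was Prrc2c, a protein of stress granules, at 1505 and 5038 on the controls and 23087 and 19942 on the ARB arrays (2.91 ± 0.86). Dapk3, a kinase that acts on the myosin light chain in smooth muscle, read 1640 and 1583 against 9864 and 10139 (2.57 ± 0.47, adjusted p = 0.175), and its other probe set differed by 3.64 ± 0.90, and by 5.25 without control 1, where it passed the adjusted threshold. At the first of these Dapk3 probe sets the pairs were tight. The other pointed the same way but read 1088.5 on control 1 and 35.2 on control 2, so its 5.25 rests on control 2 alone. Dnase1, a secreted nuclease, was higher by 2.41 ± 0.44, and Rcn1, a calcium-binding protein of the endoplasmic reticulum, by 2.35 ± 0.58. All 12 exceeded the largest difference of the hybridisation controls, but they had been picked for size. The rule for naming also fixed their sign in the runs with an array left out. Their sign held under the other alternatives too, but genes picked at 2.35 to 3.43 leave little room for a turn. After scaling to the hybridisation controls they lay at 1.25 to 2.34. Genes dim on the other arrays, such as Cyp2c11, could also pass the filter through their ARB values.

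The 12 genes named for the largest lower values, among 45 that qualified, had both ARB arrays below both controls by construction. Control probe sets were raised on the ARB arrays, but the brightest class of rat probe sets was lower, with a median of -0.33. After loess, which evens out such shifts, the 12 lay at -3.87 to -2.13. Alox15, a lipoxygenase that oxidises polyunsaturated fatty acids and is abundant in macrophages and eosinophils, read 5332 and 8055 on the controls and 642.5 and 251.2 on the ARB arrays (-3.73 ± 0.54, limma adjusted p = 0.154). Its other probe set differed by -4.76 ± 0.71. Spp1 (osteopontin), a matrix protein and cytokine of activated macrophages, read 3875 and 4673 against 317.3 and 271.5 (-3.50 ± 0.49, adjusted p = 0.154). In both genes the ARB arrays lay far below both controls. Both Alox15 probe sets and Spp1 passed the adjusted threshold with equal array medians, scaling to the hybridisation controls or a larger offset. Equal medians and scaling to the hybridisation controls move ARB values down in general, to medians of -0.50 and -0.87 over all probe sets. They gave 0 calls of higher probe sets, so passing there adds little for a gene already lower. S100a8 and S100a9, which form calprotectin in neutrophils and monocytes, were lower by 3.27 ± 0.59 and 2.86 ± 0.57 on the log2 scale. S100a8 read 2686 and 2679 on the controls and 395.9 and 79.6 on the ARB arrays, and S100a9 4805 and 5310 against 481.8 and 792.0.

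Lgals3 (galectin-3), a lectin of macrophages, read 1070 and 1153 on the controls and 84.9 and 128.4 on the ARB arrays (-2.62 ± 0.44). Alas2, the first enzyme of haem synthesis in red cell precursors, read 10011 and 9087 against 2247 and 679.6 (-2.84 ± 0.60). Plin2, which coats lipid droplets, read 2567 and 2350 against 347.5 and 349.7 (-2.54 ± 0.53). In these, as in Spp1 and the calprotectin genes, the controls lay close together although they came from different days. Nfkbia, the inhibitor that holds NF-kB in the cytoplasm and is itself an NF-kB target, read 10611 and 6075 against 1672 and 1164 (-2.45 ± 0.55). Its other probe set differed by -1.58 ± 1.19, and by -3.82 without control 2. It read 12353 on control 1 and 468.1 on control 2 against 627.8 and 987.3 on the ARB arrays. Both ARB arrays thus lay above control 2, and the lower value of this probe set rests on control 1 alone.

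The remaining lower genes were less uniform. Oaz1, which controls polyamine synthesis, read 11240 and 27610 on the controls and 2041 and 2478 on the ARB arrays (-2.92 ± 0.54), and passed the adjusted threshold at -3.57 without control 1. Igf1r, the receptor of insulin-like growth factors, was at -2.91 ± 0.61 and passed at -3.78 without control 2, but its other probe set lay at 0.51 ± 0.49. Dcn (decorin), a matrix proteoglycan, was at -2.56 ± 0.73 with other probe sets at -0.29 ± 0.47 and 0.62 ± 0.52, so the probe sets of Igf1r and Dcn disagreed. Acadm, a mitochondrial enzyme of fatty acid oxidation, was at -2.39 ± 0.62. All 12 kept a negative difference under every alternative run, which the rule for naming fixed for the runs with an array left out. For the other runs, genes picked at -3.73 to -2.39 leave little room for a turn.

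**Figure D3:**
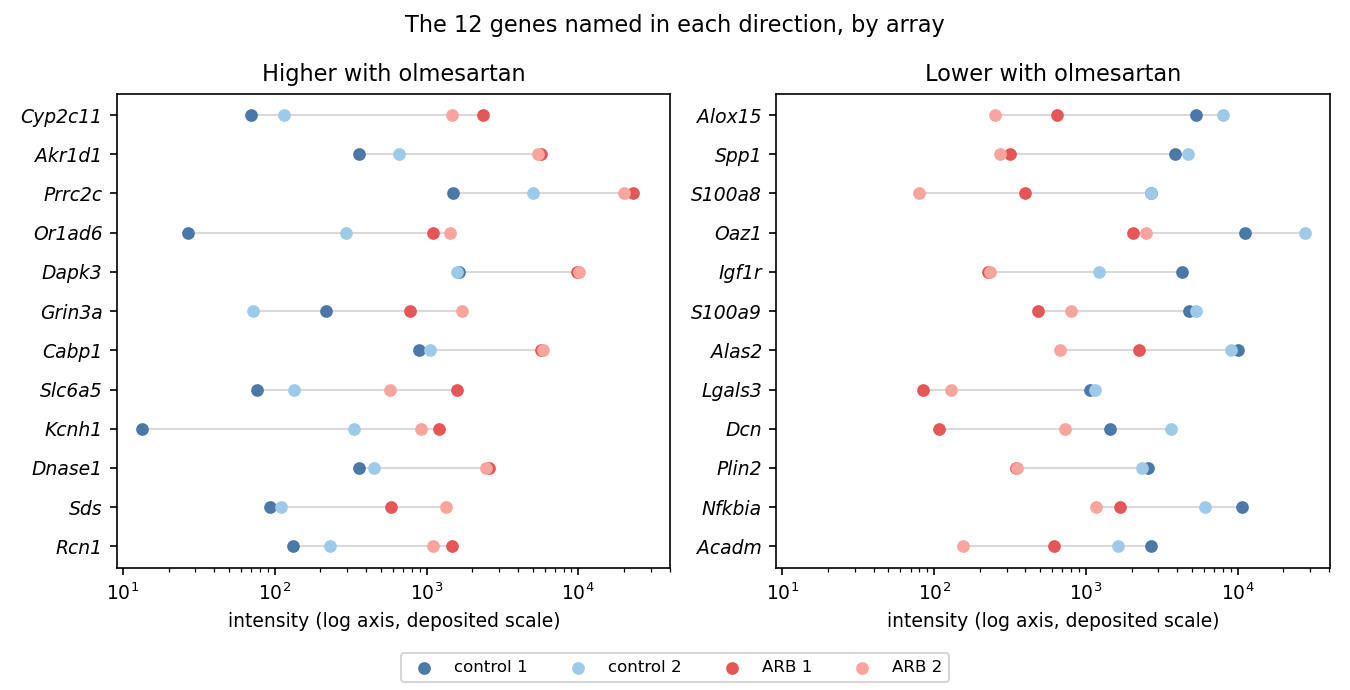
Deposited intensity (log axis) of the 12 higher and the 12 lower named genes on the control and ARB arrays, 1 point per array. In every gene shown the 2 ARB points lie on the same side of both control points, which the rule for naming required.

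Chemokines and their receptors had the lowest median of all lists. Of 15 measured, 11 were tested, of which 3 were higher and 8 lower, and 1 higher and 5 lower at an unadjusted p under 0.05 against 12.6% and 4.69% of all probe sets. The median was -1.51, or 1.69 below that of all probe sets, and it was -1.52 against control 1 and -1.19 against control 2. Ccl2, which draws monocytes, read 894.4 and 4422 on the controls and 569.0 and 88.8 on the ARB arrays (-2.62 ± 0.85, limma adjusted p = 0.23), and its other probe set lay at -0.58 ± 0.61. Cxcl2, a neutrophil attractant, read 2004 and 2105 against 405.3 and 501.6 (-1.99 ± 0.45, adjusted p = 0.199). Ccl4, a chemokine of macrophages, read 5515 and 3641 against 1179 and 1272 (-1.80 ± 0.52). Without the filter, the median over all 15 measured members was -0.006, since the 4 dim members left out were all higher. Of the 15, 3 lay above both controls and 6 below both, against 42.1% and 13.1% of all genes.

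Nfkbia and Cxcl2 are textbook NF-kB targets, and the region from 250 bases before to 50 bases after the start of each is shown with every match to the kB motif (the DNA site of NF-kB, searched on both strands in a strict form) in capitals. Sequences are RefSeq's for GRCr8, on the strand of the gene. The promoter of Nfkbia (chr6:78597023-78597322, minus strand) holds 1 match, and that of Cxcl2 (chr14:17467206-17467505, minus strand) holds 2.
Nfkbia: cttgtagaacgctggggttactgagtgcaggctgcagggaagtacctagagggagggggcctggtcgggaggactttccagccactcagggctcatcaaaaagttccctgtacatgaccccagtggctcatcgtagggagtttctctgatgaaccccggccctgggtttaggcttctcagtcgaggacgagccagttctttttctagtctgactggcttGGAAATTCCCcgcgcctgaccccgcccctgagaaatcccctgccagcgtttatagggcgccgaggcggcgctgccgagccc
Cxcl2: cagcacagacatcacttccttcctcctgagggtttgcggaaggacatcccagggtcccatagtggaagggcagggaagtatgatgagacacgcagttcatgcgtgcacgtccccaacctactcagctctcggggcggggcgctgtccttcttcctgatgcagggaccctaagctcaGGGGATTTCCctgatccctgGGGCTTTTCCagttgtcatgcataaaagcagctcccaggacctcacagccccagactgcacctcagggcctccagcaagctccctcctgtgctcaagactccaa
Of 33469 promoters of the same length in the table, 512 (1.53%) hold this motif. Among the lower named genes 9 had a promoter in the table, and Nfkbia was the only 1 with a match. The promoter of Icam1, also a known NF-kB target, holds 0 matches in this window. Neither promoter holds TGANTCA, a form of the AP-1 site that 7.33% of promoters hold. A match describes the letters only.

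The wider list of inflammation and cytokines gave 6 higher and 14 lower among 20 tested of 30 measured, with 0 higher and 3 lower at an unadjusted p under 0.05 (12.6% and 4.69% of all probe sets) and a median of -0.67 (-0.81 against control 1, -0.20 against control 2). Over all 30 measured it was 13 higher and 17 lower, with a median of -0.30. The 3 were Alox15, Nfkbia and Il1b. Il1b, the interleukin-1β of activated macrophages, read 3427 and 9034 on the controls and 1368 and 1501 on the ARB arrays (-1.90 ± 0.60, limma adjusted p = 0.227). Its other probe sets lay at -3.02 ± 0.75 and -1.11 ± 0.74, all on the same side. Tnf, by contrast, read 1099.7 on control 1, 39.2 on control 2, 149.2 on ARB 1 and 156.0 on ARB 2, so the ARB arrays lay between the controls.

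Endothelial receptors for leukocytes split. Icam1, a ligand of leukocyte integrins that cytokines raise on endothelium, read 5542 and 5525 on the controls and 1925 and 2093 on the ARB arrays (-1.42 ± 0.46, limma adjusted p = 0.23), with its other probe set at -0.92 ± 0.87. Icam2, which endothelium carries constitutively, read 1109 and 1019 against 208.3 and 256.8 (-1.84 ± 0.45, adjusted p = 0.199). Vcam1, a ligand for lymphocytes and monocytes, was at 0.44 ± 0.46 at 1 probe set and -0.85 ± 0.57 at the other. Madcam1, an addressin of gut venules, was at 1.33 ± 0.49, and Itgb1, a subunit of many integrins, at -0.93 ± 0.49. Of the 6 leukocyte adhesion genes tested (10 measured), 4 were higher and 2 lower, against 5 and 5 of all 10 measured, and Sele was too dim to test, at 29.9 and 126.5 on the controls and 69.0 and 42.3 on the ARB arrays.

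Markers of blood and immune cells were set beside these genes. The summed intensity of the 10 tested genes of neutrophils, monocytes and lymphocytes was 12711 and 13203 on the controls and 5749 and 5949 on the ARB arrays. S100a8, S100a9 and S100a4 carried this sum, and the other 7 genes summed to 3894 and 2889 on the controls and 4485 and 4864 on the ARB arrays, a split chosen after the values were seen. Of the 10, 4 were higher and 6 lower, 3 and 4 of them at an unadjusted p under 0.05 (12.6% and 4.69% of all probe sets), with a median of -0.96. Over all 16 measured the median was 0.58, with 9 above both controls and 6 below both, against 42.1% and 13.1% of all genes. The list thus has no common direction. S100a4, a calcium-binding protein of monocytes and fibroblasts, was at -2.28 ± 0.57. The intensity summed over 16 tested microglia and macrophage genes was 93405 and 137437 on the controls and 112197 and 123612 on the ARB arrays, so the sums overlapped. Of the 16, 5 were lower and 0 higher at an unadjusted p under 0.05, against 4.69% and 12.6% of all probe sets, and the median was -0.28. C1qb, a chain of complement C1q made by microglia, read 12181 and 13245 against 2639 and 3065 (-2.12 ± 0.59), with its other probe set at -1.96 ± 0.80. Lyz2, the lysozyme of macrophages and neutrophils, read 16585 and 13171 against 4561 and 4550 (-1.68 ± 0.47). Aif1, a microglial protein, and Cd74, the invariant chain of antigen-presenting cells, were at -0.74 ± 0.50 and -0.35 ± 0.63.

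Red cell genes were lower at Alas2 and at Bnip3l, which clears mitochondria from maturing red cells (-1.59 ± 0.54). The sum over 6 tested erythroid genes was 59490 and 185024 on the controls against 67357 and 57360. The haemoglobin gene Hbb read 21900 and 90197 on the controls and 46802 and 40285 on the ARB arrays (-0.03 ± 0.66), and Hbb-b1 16668 and 63286 against 11651 and 10081 (-1.58 ± 0.72). The globin probe sets come from near-identical copies and may share signal. The median of the 6 was -0.81, at -0.31 against control 1 and -1.63 against control 2, but over all 8 measured it was 0.02, with 4 higher and 4 lower. What part the number of blood cells or macrophages in the preparations had in the lower inflammatory genes was not tested.

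Within the angiotensin system the receptor that olmesartan blocks was low in signal. Agtr1a, the main type 1 receptor of vessels, read 241.3 and 261.4 on the controls and 561.8 and 689.5 on the ARB arrays (1.06 ± 0.57, limma adjusted p = 0.357), a difference below the 1.29 median of the hybridisation controls and 0.06 after scaling to them. All 4 probe sets of the close paralogue Agtr1b were below the filter, and cross-hybridisation between the paralogues cannot be told apart here. They read between 26.7 and 291.3 on the controls and between 109.5 and 979.5 on the ARB arrays. Agt, the precursor of angiotensin, read 2669 and 1683 against 1603 and 1567 (-0.40 ± 0.48). Ace, which makes angiotensin II on the endothelial surface, read 9110 on control 1 and 1346 on control 2 against 4869 and 5364, and so differed by -0.82 from control 1 and by 1.86 from control 2.

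Over the angiotensin list, 8 of 10 tested members were higher and 2 lower, 4 and 0 of them at an unadjusted p under 0.05 (12.6% and 4.69% of all probe sets). Of all 15 measured 12 were higher, against 67.8% of all genes, with a median of 0.93. The median of the 10 was 0.79, which was 0.10 with equal array medians and -0.28 after scaling to the hybridisation controls. Thop1, which cleaves angiotensin I to angiotensin 1-7, read 299.4 and 101.1 on the controls and 949.4 and 763.3 on the ARB arrays (1.79 ± 0.51, adjusted p = 0.201). Lnpep, the aminopeptidase that binds angiotensin IV, read 174.5 and 129.9 against 552.5 and 723.2 (1.58 ± 0.50). Anpep, the aminopeptidase N of pericytes, was at 1.51 ± 0.58 at 1 probe set and at -2.39 ± 0.54 at the other, so it has no single direction. These levels are dim, and of the 3 differences that of Thop1 alone passed the 1.72 of the largest hybridisation control.

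Aldosterone and glucocorticoid signalling had 3 higher and 3 lower among 6 tested genes and a median of -0.21, which turned to 0.23 over all 10 measured, with 7 higher and 3 lower. Nr3c2, the mineralocorticoid receptor, was at 0.08 ± 0.67 and its kinase target Sgk1 at -0.52 ± 0.48. The glucocorticoid receptor Nr3c1 was at -0.80 ± 0.73, with 736.0 on control 1 and 136.6 on control 2, and its other probe set at 0.23 ± 0.68. Scnn1a, a subunit of the epithelial sodium channel, read 159.3 and 263.8 against 758.6 and 1145 (1.79 ± 0.50), and Atp1b1, a sodium pump subunit, was at 0.55 ± 0.67, with others at 0.79 ± 0.51 and 2.12 ± 0.92.

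The label of the tissue was borne out by endothelial genes on control 1, less so on control 2. Slc2a1, the glucose carrier of the blood-brain barrier, was the brightest probe set of all on control 1 and read 33691 there, 66763 on control 2, 27457 on ARB 1 and 37476 on ARB 2 (-0.56 ± 0.51). Whether the scale of control 1 limits that value was not tested. The other Slc2a1 probe set read 17554 and 13932 on the controls and 5105 and 4511 on the ARB arrays (-1.69 ± 0.48), with no overlap. Pecam1, a junction protein of endothelium, read 5538 on control 1 but 193.8 on control 2, against 552.7 and 316.6 on the ARB arrays. Vwf read 596.3 and 49.2 against 271.7 and 476.7, and the endothelial nitric oxide synthase Nos3 2068 and 262.2 against 629.0 and 599.7. At these probe sets of Pecam1, Vwf and Nos3 the ARB arrays lay between the controls. The other Vwf probe set was at -0.83 ± 0.68 and the other 4 of Nos3 ran from -1.19 ± 0.81 to 0.21 ± 0.76, and at the Vwf probe set and at 2 of those of Nos3 1 ARB array fell below both controls.

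Over 15 tested endothelial genes (16 measured) the median was -1.23 against control 1 and 0.78 against control 2, so the list has no direction that both controls share. Only 1 gene was higher and 1 lower at an unadjusted p under 0.05, against 12.6% and 4.69% of all probe sets. The 2 genes were Gja5, a gap junction protein of arteries (1.29 ± 0.52, other probe set 0.12 ± 0.52), and Icam2. Kdr, the main VEGF receptor, was at 0.50 ± 0.48. Barrier transporters did likewise, at -0.79 against control 1 and 0.57 against control 2 over 15 tested of 17 measured. The drug efflux pump Abcb1a read 1320 and 193.2 on the controls and 545.8 and 1036 on the ARB arrays, and the transferrin receptor Tfrc 1788 and 101.1 against 937.9 and 765.5. Both again sat between the controls.

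A few transporters stood outside the controls. Slc3a2, the heavy chain of the large amino acid carrier, read 17726 and 18078 on the controls and 5379 and 9121 on the ARB arrays (-1.34 ± 0.47, limma adjusted p = 0.238), with the other probe set at -0.13 ± 0.70. Slc1a1, a glutamate carrier, was at -1.34 ± 0.52, with others at -1.14 ± 0.74 and 0.82 ± 0.80. Lepr, the leptin receptor, read 62.9 and 260.7 against 1086 and 928.8 (2.24 ± 0.54, adjusted p = 0.199). Of 26 lists 9 had medians of opposite sign against the 2 controls. Run day, chip lot and RNA quality also separate the controls, and the part of each was not tested. Over the probe sets tested the 2 controls correlated at 0.747, the 2 ACEI arrays at 0.906 and the 2 ARB arrays at 0.88. Control 1 correlated at 0.929 and 0.911 with the ACEI arrays and at 0.713 and 0.693 with the ARB arrays. Control 2 correlated at 0.768 and 0.77 with the ACEI arrays and at 0.789 and 0.765 with the ARB arrays. Each control was thus more like both ACEI arrays than like the other control.

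**Figure D4:**
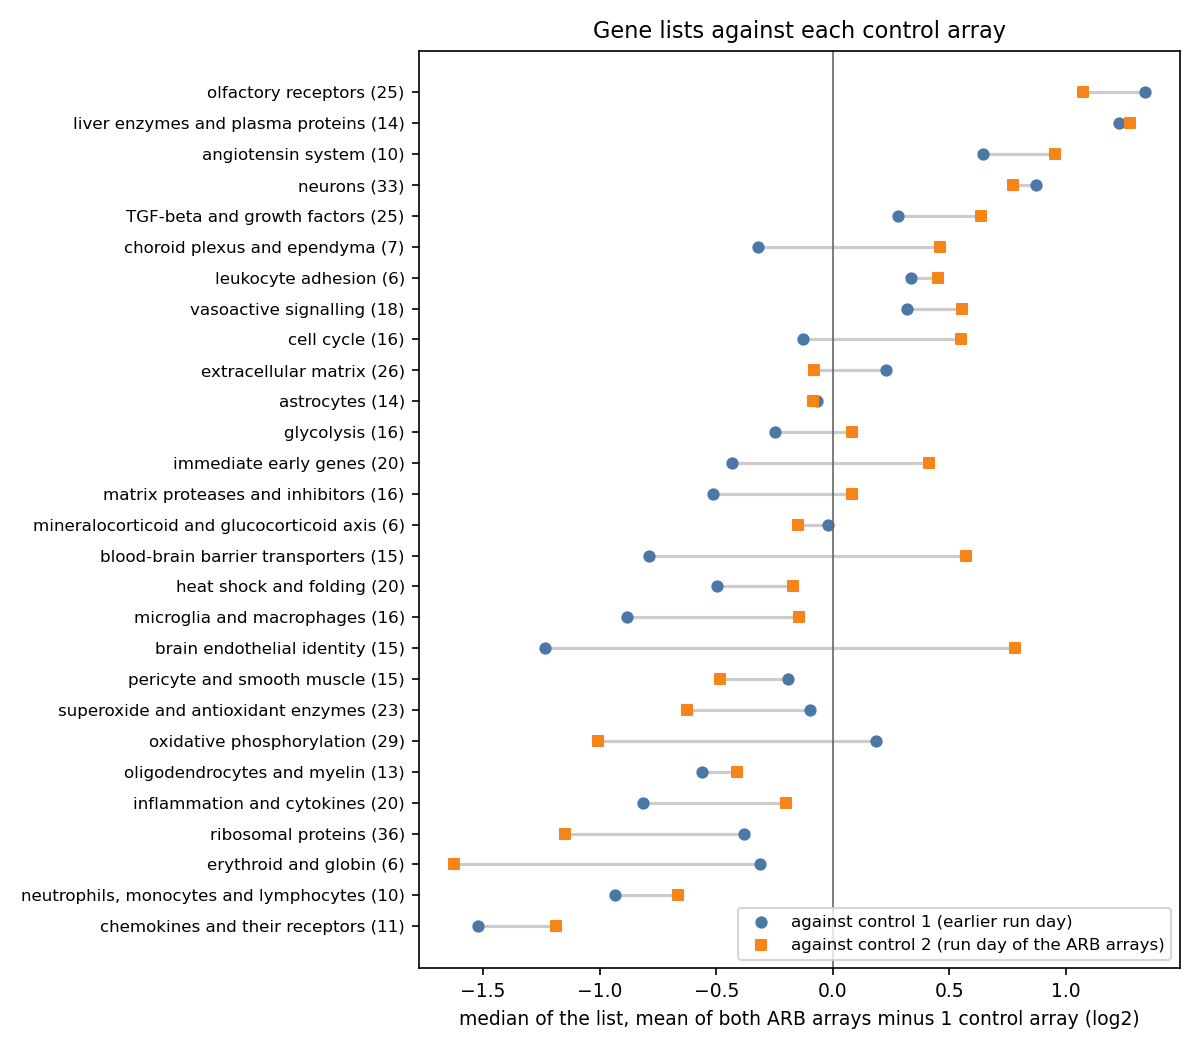
Median log2 difference of each gene list, mean of both ARB arrays minus control 1 (circles) or control 2 (squares), with a line at 0 and the number of genes tested in brackets. Endothelial genes lie at -1.23 against control 1 and 0.78 against control 2, whereas chemokines lie at -1.52 and -1.19.

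Mural cell genes tended lower, with 5 higher and 10 lower among 15 tested of 18 measured and a median of -0.31 (-0.19 against control 1, -0.48 against control 2). Acta2, the smooth muscle actin of arterioles, read 19511 and 23120 on the controls and 8712 and 8764 on the ARB arrays (-1.27 ± 0.45, limma adjusted p = 0.238). Its other probe sets lay at -0.26 ± 0.69 and -0.10 ± 1.00. Tagln, an actin-binding protein of smooth muscle, was at -0.81 ± 0.48 and -1.05 ± 0.56, and Tpm2, a muscle tropomyosin, at -1.48 ± 0.68. Pdgfrb, the receptor that pericytes depend on, was at -0.41 ± 0.59.

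The extracellular matrix list centred near the median of all probe sets, at 0.11 with 15 higher and 11 lower among 26 tested of 30 measured. Its ends were far apart. Spp1 and Dcn were lowest, Fn1 (fibronectin) read 12546 and 21121 against 6500 and 7151 (-1.25 ± 0.49, limma adjusted p = 0.262), with others at -0.61 ± 1.10 and -0.26 ± 0.90. Tnc (tenascin-C), a matrix protein of injury and development, read 169.1 and 669.0 against 1677 and 1997 (2.11 ± 0.68). Among 16 tested matrix proteases and inhibitors (23 measured) 7 were higher and 9 lower, with a median of -0.14, which turned to 0.41 over all measured (13 higher and 10 lower). Plat, the tissue plasminogen activator that endothelium releases, read 7520 and 8056 against 2226 and 2856 (-1.59 ± 0.47, adjusted p = 0.207). Timp1, an inhibitor of metalloproteinases, was at -1.56 ± 0.79 with the other probe set at -2.32 ± 0.88. Mmp7 was at 1.71 ± 0.51, and Mmp9 was too dim to test, at 209.6 and 263.0 on the controls and 94.1 and 133.9 on the ARB arrays.

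Growth factors had 16 higher and 9 lower among 25 tested, near the 58.4% higher of all genes tested. Of all 32 measured 21 were higher, near the 67.8% of all genes. The median of the 25 was 0.71, which was -0.40 after scaling to the hybridisation controls. Inhba, which forms activin A, read 313.1 and 276.8 on the controls and 1309 and 1346 on the ARB arrays (1.88 ± 0.50, limma adjusted p = 0.201). Vegfa was at 0.98 ± 0.52, with others at 1.09 ± 0.70 and 0.59 ± 0.49, all below the 1.29 of the hybridisation controls. Tgfb1 read 1587 on control 1, 78.4 on control 2, 1259 on ARB 1 and 2027 on ARB 2, and differed by 0.01 from control 1 and by 3.33 from control 2. Pdgfb was at 1.71 ± 0.78 and -1.47 ± 1.16, and Pdgfa at -0.27 ± 0.64 and 1.09 ± 0.52, each pair of probe sets disagreeing.

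Vasoactive genes were dim, with 12 higher and 6 lower among 18 tested. Of all 30 measured 22 were higher and 14 lay above both controls, near the 67.8% and 42.1% of all genes. The median of the 18 was 0.42, and -0.74 after scaling to the hybridisation controls. Bdkrb1, the inducible bradykinin receptor, read 483.3 and 58.2 on the controls and 1218 and 1455 on the ARB arrays (2.29 ± 0.70, limma adjusted p = 0.212). Nppc, the C-type natriuretic peptide of endothelium, read 138.7 and 36.2 against 488.8 and 717.6 (2.01 ± 0.50), and Adra2b, an adrenergic receptor, was at 1.77 ± 0.45. Edn1 (endothelin-1), the endothelial vasoconstrictor, read 3014 and 233.8 against 524.0 and 1212 and thus overlapped. Adm (adrenomedullin), a vasodilator, read 438.9 and 549.3 against 411.3 and 68.5 (-1.05 ± 0.69).

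Enzymes that make or remove reactive oxygen were lower for 16 of 23 tested (26 measured), with a median of -0.39. At an unadjusted p under 0.05, 2 were lower and 0 higher, against 4.69% and 12.6% of all probe sets. Cyba, the p22phox subunit of the NADPH oxidases, read 3095 and 1200 on the controls and 417.9 and 432.6 on the ARB arrays (-1.98 ± 0.59, limma adjusted p = 0.209). Xdh, the xanthine oxidoreductase of capillary endothelium, read 3689 and 3949 against 1578 and 1434 (-1.29 ± 0.55, adjusted p = 0.28). Hmox1, the inducible haem oxygenase, was at -0.89 ± 0.48. Its other probe set was at -1.41 ± 0.94, and at -3.14 without control 2 (control 1 alone). It read 1372 and 44.5 on the controls against 70.0 and 83.2, so the ARB arrays lay between the controls. Sod1, the cytosolic superoxide dismutase, read 11947 and 9618 against 5468 and 5257 (-0.99 ± 0.45), with others at -1.02 ± 0.45 and 0.003 ± 0.58, and the extracellular Sod3 was at 1.04 ± 0.61 and 0.72 ± 0.82. These enzymes are bright, and after loess the list median was -0.23.

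Neuronal genes were the most one-sided of the 26 lists. Of 46 measured, 42 were higher and 4 lower without the filter, and 30 lay above both controls, against 67.8% higher and 42.1% above both controls over all genes. Of the 33 tested, 9 were higher and 0 lower at an unadjusted p under 0.05, against 12.6% and 4.69% of all probe sets. The median of 0.78 was 0.64 after loess and -0.20 after scaling to the hybridisation controls. The summed intensity of the 33 was 33410 and 43780 on the controls and 56459 and 64524 on the ARB arrays. Snap25, a protein of synaptic vesicle fusion, read 345.0 and 298.7 against 908.3 and 1141 (1.43 ± 0.45, limma adjusted p = 0.229). Rab3a, of synaptic vesicles, was at 1.71 ± 0.55, and Uchl1, an abundant neuronal hydrolase, read 408.7 and 587.8 against 1873 and 1913 (1.77 ± 0.49), with its other probe set at 1.34 ± 0.48. Gabrb2, a GABA receptor subunit, was at 1.73 ± 0.67, while Nefl, the light neurofilament, was at 0.34 ± 0.50 and overlapped.

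Other cells of the brain did not share this. Myelin and oligodendrocyte genes were lower for 10 of 13 tested (14 measured), with a median of -0.58. Cnp, a myelin enzyme, read 1694 and 1874 on the controls and 785.8 and 152.8 on the ARB arrays (-2.02 ± 0.65), Qdpr, a pteridine reductase, was at -1.39 ± 0.44 and -2.34 ± 0.63 (the latter passing the adjusted threshold at -3.21 without control 2), and Mog, of the outer myelin sheath, was at -0.72 ± 0.46 and -0.39 ± 0.71. Mbp (myelin basic protein) read 5492 on control 1 and 234.3 on control 2 against 626.1 and 668.7, and passed the adjusted threshold at -2.92 without control 2. Enpp2, which makes lysophosphatidic acid and is also strong in choroid plexus, was higher, at 0.94 ± 0.57 and 0.95 ± 0.59.

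Astrocyte genes had 7 higher and 7 lower among 14 tested, and 10 and 7 among all 17 measured. Glul, the glutamine synthetase of astrocytes, read 12774 and 17553 on the controls and 4865 and 5758 on the ARB arrays (-1.49 ± 0.45, limma adjusted p = 0.212), with others at -1.27 ± 0.46, -1.04 ± 1.13 and -2.07 ± 0.47. All 4 Glul probe sets had a negative difference, but that at -1.04 read 6646 and 263.6 on the controls against 812.4 and 534.6. There the ARB arrays lay between the controls, and its -3.17 without control 2 rests on control 1 alone. At the others both ARB arrays lay below both controls. Slc1a2, the glial glutamate carrier, was at 0.97 ± 0.72 and 1.31 ± 0.52. Cst3 (cystatin C), a secreted protease inhibitor, read 27429 and 54465 against 92082 and 89102 (1.23 ± 0.50), but this became -0.004 after scaling to the hybridisation controls. Its other probe set was at 2.92 ± 0.64 and passed the adjusted threshold at 3.88 without control 2. The water channel Aqp4 was too dim to test, at 94.2 and 101.8 against 31.0 and 303.7.

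Ttr (transthyretin), which the choroid plexus secretes into cerebrospinal fluid, had the brightest probe set on both ARB arrays, a different 1 of its pair on each. The probe set with the higher mean read 30927 on control 1, 92148 on control 2, 202386 on ARB 1 and 201474 on ARB 2 (1.92 ± 0.58, limma adjusted p = 0.21), and the other differed by 3.01 ± 0.84 and passed the adjusted threshold at 4.38 without control 2. On control 1 the probe set with the higher mean stood at 91.8% of the array's maximum, and whether the scale of that array limits the value was not tested. Foxj1, of ciliated ependyma, was at 1.53 ± 0.58, Kl (klotho) read 3295 and 239.6 against 1102 and 1794, and Aqp1, a water channel of choroid plexus, was at -1.06 ± 0.58. Of the 7 choroid plexus and ependyma genes 4 were higher and 3 lower. At an unadjusted p under 0.05 it was 2 and 0, against 12.6% and 4.69% of all probe sets. The part of choroid plexus in the preparations was not tested.

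Ribosomal proteins were the most one-sided of the lower lists. Of 36 tested (37 measured) 5 were higher and 31 lower, and 21 lay below both controls, against 16.8% of all probe sets. At an unadjusted p under 0.05, 2 were higher and 4 lower, against 12.6% and 4.69% of all probe sets. The median was -0.73 before and -0.39 after loess, at -0.38 against control 1 and -1.15 against control 2. Rps6, a kinase target in the small subunit, read 11973 and 32889 on the controls and 7928 and 9116 on the ARB arrays (-1.22 ± 0.58). Rpl22 read 18503 and 39789 against 10914 and 11224 (-1.29 ± 0.51), and Rpl35a was at -1.54 ± 0.68. Rps15 went the other way at 1.44 ± 0.52 with others at -0.96 ± 0.47 and 0.51 ± 0.62, and so did Rpl17 at 1.57 ± 0.63. Ribosomal genes have many processed pseudogenes, and signal shared with near-identical copies cannot be told apart.

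Nuclear genes of oxidative phosphorylation were lower for 22 of 29 tested (30 measured), at -0.44, but at 0.19 against control 1, -1.01 against control 2 and -0.02 after loess. Cox4i1, a subunit of cytochrome oxidase, read 17767 and 67666 on the controls and 29875 and 32495 on the ARB arrays, and Atp5f1b of the ATP synthase 10874 and 17843 against 13036 and 11750. At these probe sets both overlapped, while others of Cox4i1 lay at -0.21 ± 0.46 and 1.11 ± 0.46, the latter with both ARB arrays above both controls. Cox6b1 was at -1.08 ± 0.53 and Sdha at -1.01 ± 0.44, while Cox6c was at 0.97 ± 0.67 and -1.21 ± 0.57. Glycolysis gave 7 higher and 9 lower among 16 tested of 20 measured, 0 of them at an unadjusted p under 0.05, against 17.3% of all probe sets. Aldoa read 7447 on control 1, 373.7 on control 2, 680.5 on ARB 1 and 159.7 on ARB 2 (-2.09 ± 1.14). Pgk1 was at -0.82 ± 0.48, Aldoc at -1.35 ± 0.61 and Hk2 at 0.85 ± 0.49 and -2.18 ± 0.55.

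Chaperones were lower for 14 of 20 tested with a median of -0.23, or -0.04 after loess, and 8 of the 20 lay below both controls and 0 above, against 16.8% and 33.4% of all probe sets. Hspa5, the chaperone of the endoplasmic reticulum, read 5357 and 5912 on the controls and 3411 and 2613 on the ARB arrays (-0.89 ± 0.50), with the other probe set at -1.38 ± 0.67. Serpinh1, the collagen chaperone, was at -2.01 ± 0.82, and read 4075 on control 1 and 567.6 on control 2. Hspb1 was at 0.32 ± 0.54, with others between 0.35 ± 0.62 and 1.93 ± 0.88, the last of which passed the adjusted threshold at 3.50 without control 1. Hspe1 and Cryab were at -1.01 ± 0.62 and -0.96 ± 0.60.

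Immediate early genes, which stress during tissue isolation can raise, gave 9 higher and 11 lower among 20 tested of 23 measured, with a median of -0.13. Nr4a1, an orphan nuclear receptor, read 10250 and 11120 on the controls and 3823 and 3529 on the ARB arrays (-1.52 ± 0.44, limma adjusted p = 0.207), and its other probe set lay at -0.61 ± 0.81. Fos was at -0.35 ± 0.66 and Egr1 at -0.16 ± 0.59, both overlapping, with other Egr1 probe sets from -0.44 ± 0.93 to 0.92 ± 0.61. Jun was at 0.82 ± 0.52 with others from -1.18 ± 0.54 to 2.74 ± 1.34, Dusp1 at 1.58 ± 1.00 and Fosl2 at 1.34 ± 0.69. The probe sets at 2.74 (Jun) and 2.98 (Dusp1) passed the adjusted threshold at 5.35 and 6.16 without control 1, while other probe sets of both genes did not, so neither gene has a settled direction.

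Of the cell cycle list 10 were higher and 6 lower among 16 tested of 22 measured, with a median of 0.15. Pcna, the sliding clamp of DNA polymerase, read 6342 and 15211 on the controls and 3427 and 1621 on the ARB arrays (-2.02 ± 0.61, limma adjusted p = 0.21), with the other probe set at -1.02 ± 0.55. Ccne1 was at 1.18 ± 0.52 and 1.31 ± 0.47, Mcm6 at 1.03 ± 0.58 with others at 0.14 ± 0.70 and -0.55 ± 0.44, and Ccnd1 at 0.14 ± 0.75 with others from -1.37 ± 0.48 to 0.83 ± 0.46.

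**Figure D5:**
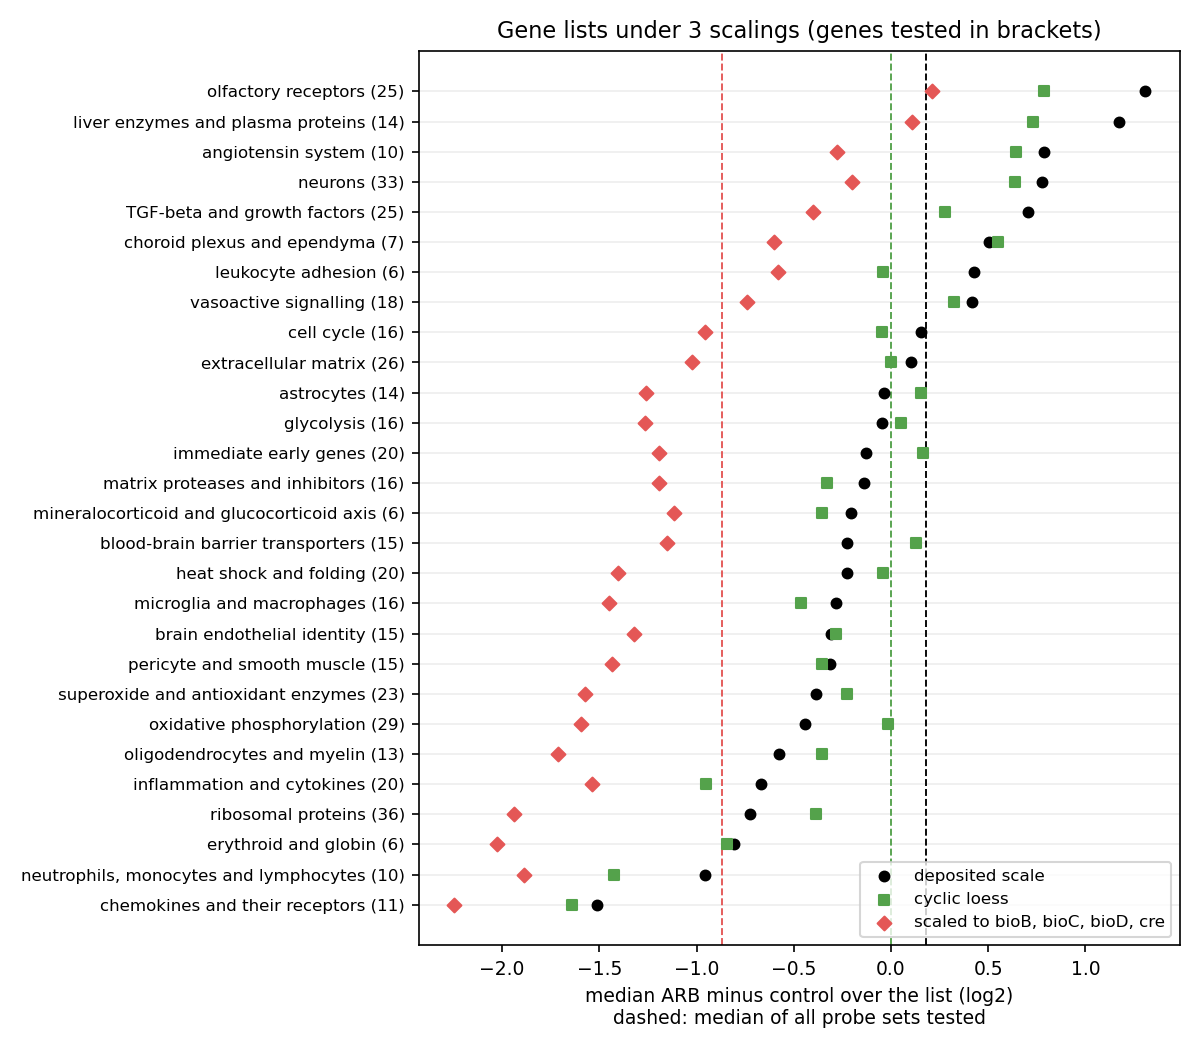
Median log2 difference, ARB minus control, of each gene list under the deposited scale, cyclic loess and scaling to the hybridisation controls, with dashed lines at the median of all probe sets tested. Chemokines are the lowest list under each, at -1.51, -1.64 and -2.25, while neurons run from 0.78 to -0.20.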

How the data were processed

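RNA of SHRSP brain capillaries was measured on 6 RG_U34A arrays in 3 groups of 2. The deposited values are intensities on a linear scale, 1 per probe set and array; the software and background correction behind them are not given in the sources used here, and the trimmed means show that the authors' values were scaled per array. Run day, chip lot and fluidics protocol are per the file headers of the run files. Gene symbols came from the array's annotation table (7006 rat probe sets had 1 symbol, 308 several and 1426 none, and the latter were not named), of which 6985 matched the RefSeq gene table and 0 needed an update. Cxcl1, Cybb, Hspa1b, Gfap, Mki67 and Gapdh were not analysed here as rat genes for lack of such a probe set.

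Intensities were taken as log2(value + 90), 90 being the median of values above 0 (358.3) divided by 4. Probe sets in the lowest 40% by their mean over the 6 arrays were left out. Group means were estimated by limma 3.58.1 under R 4.3.3 (lmFit and eBayes, 3 residual and 5.49 prior degrees of freedom), contrast ARB minus control, two-sided, with Benjamini-Hochberg adjustment at 0.05 over the 5244 probe sets. Summaries were made in Python 3.11.15 with pandas 2.3.3, and plots with matplotlib 3.10.9. The procedure was tested on simulated data. The number of arrays limits the precision. Gene lists hold 1 probe set per gene, that with the highest mean, and are described by counts and medians without a test of the list.

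Named genes were, per direction, up to 12 genes by size of difference at an unadjusted p under 0.01 whose ARB arrays lay beyond both controls (none passed the adjusted p), a fixed set given whatever its values, and, from each list, the 3 or fewer members with the largest difference. The lists, the genes and the comparison were chosen with earlier results of these data known. Alternatives were 2 offsets, 2 filters, 4 scalings, a floor at the foreign transcripts, a block for replicate number or run day, weighted arrays, a trended and robust variance prior, fits of fewer arrays and each array left out in turn. The fluidics protocol coincides with the replicate number, so its block is the replicate block. Replicate number 1 was given to the unnumbered control and ACEI titles. Whether equal numbers pair arrays was checked by the correlation of their deviations from group means (0.05, -0.02 and -0.004), and they were not treated as pairs.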

Additional observations from a re-analysis of the deposited data

Results flagged for a closer look

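Signal in data outside the gene comparison was above the control arrays on both ARB arrays for 3 kinds of array control probe sets. The hybridisation controls had a median intensity of 7524.8 on ARB 1 and 5387.3 on ARB 2, against 1289.8 and 3273.5 on the controls and 1840.9 and 1011.5 on the ACEI arrays. The foreign transcripts had medians of 91.4 and 80.9, against 24.2 and 25.2 on the controls. The antisense controls had medians of 522.3 and 326.4, against 186.7 and 212.9. Groups of 2 arrays are too small for a test of single arrays that stand apart.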

How the results depend on the processing

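The count past an adjusted p of 0.05, which was 0 by limma with 905 probe sets at an unadjusted p under 0.05, became 4 with an offset equal to the median, 4 after scaling to the hybridisation controls, 3 with equal array medians and 4 with the replicate number as a block. Leaving out each array in turn gave 0 to 46 (15 without control 1, 46 without control 2). Both Alox15 probe sets and Spp1 were among the calls of the first 4 settings. The other alternatives gave 0. The median difference of all probe sets, 0.18, reversed to -0.066 after quantile normalization, -0.001 after cyclic loess, -0.871 after scaling to the hybridisation controls and -0.499 with equal medians. Cst3 became -0.004 after scaling to the hybridisation controls. Unadjusted counts, 659 higher and 246 lower, became 1560 and 306 without the filter, 316 and 207 with 60% left out, 400 and 481 (quantile), 347 and 365 (loess), 11 and 463 (hybridisation controls), 117 and 889 (equal medians) and 1038 and 488 on the later run day alone. They ranged from 257 to 858 higher and 119 to 511 lower with an array left out. The cause of these moves was not tested. Of 2840 values of named genes under alternatives, 2726 kept sign and side of the threshold, 13 passed it, 1 that was under an unadjusted p of 0.05 reversed, and 100 others changed sign.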

Other observations

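Some of the largest differences belong to probe sets with no single gene symbol, 64 of which had an unadjusted p under 0.01 (55 higher, 9 lower). Over all 5244 probe sets tested, 245 had such a p, and in all 245 the groups did not overlap. Higher ones were in excess generally, at 12.6% against 4.69% lower at an unadjusted p under 0.05. Those given here go by probe set and were chosen after their values were seen. The probe set rc_AA892512_at read 147.0 and 295.8 on the controls and 3266 and 3438 on the ARB arrays (3.51 ± 0.48, limma adjusted p = 0.154), and passed the adjusted threshold with the larger offset and with the replicate number as a block. The probe set rc_AI176456_at read 7979 and 44330 against 2163 and 581.7 (-3.94 ± 1.02), and passed it after scaling to the hybridisation controls. Both would need a gene name before they could be read as biology.

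The brightest probe sets took a larger share of the signal on the ARB arrays. The 10 brightest probe sets of an array held 2.56% of its summed intensity on control 1, 5.64% on control 2, 11.26% on ARB 1 and 12.17% on ARB 2. Besides Ttr and Cst3 these included mitochondrially encoded transcripts. COX1, a subunit of cytochrome oxidase, read 19347 and 70113 on the controls and 137180 and 144877 on the ARB arrays (1.93 ± 0.63, and 2.86 without control 2, where it passed the adjusted threshold), and COX3 read 22553 and 65869 against 117285 and 120239 (1.62 ± 0.57). Nuclear genes of the same complexes had a median of -0.44. Whether the difference between nuclear and mitochondrial transcripts follows the wider range of intensities on the ARB arrays was not tested.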
